A study of Mus musculus with 4 samples.

Results

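Genes for chromatin remodelers and histone modifiers were followed in 4 lists of accessible regions from mouse embryonic stem cells (ESCs). The genes were the autosomal protein-coding genes of GENCODE mouse release 21 whose symbols place them in 7 families, Smarc, Arid, Chd, Ino80, Hdac, Kdm and Mbd. There were 66 such genes among 20807 autosomal protein-coding genes, 12 Smarc, 10 Arid, 9 Chd, 5 Ino80, 9 Hdac, 15 Kdm and 6 Mbd genes. Another 6 genes with such symbols lie on the sex chromosomes and were not used. Chromatin accessibility had been measured by ATAC-seq, in which a transposase cuts and tags open DNA, and a peak is an interval where tagged fragments pile up. The cells were E14, an ESC line, grown in serum with LIF, infected with pLKO lentivirus that carried a hairpin, and selected with puromycin. The hairpin targeted GFP in 1 library (shGFP) and luciferase in 3 (shLuc replicates 1, 2 and 3). Neither is a mouse gene, so all cells were controls. The labels do not say whether the shLuc replicates were separate cultures, and shGFP had no replicate.

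Chromatin remodelers are ATP-driven enzymes that slide, evict or exchange nucleosomes. The Smarc genes, with Arid1a, Arid1b and Arid2, encode subunits of the BAF and PBAF complexes and related ATPases, the Chd genes encode chromodomain ATPases, and the Ino80 genes encode subunits of the INO80 complex. Histone deacetylases (Hdac) remove acetyl groups from histones and other proteins, lysine demethylases (Kdm) remove methyl groups from histone lysines, and Mbd proteins hold or resemble a domain that binds methylated DNA. Several of them meet in the NuRD complex, which joins a Chd ATPase with deacetylases and Mbd2 or Mbd3. BAF and NuRD are both known for their roles in ESC self-renewal and differentiation.

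The sequence before the 5′ end of 1 gene per family is shown to set genes with and without a peak beside each other. Smarcd2 had a promoter peak in 3 libraries, Arid1a and Chd4 in none, Ino80, Hdac1 and Kdm7a in all 4, and Mbd6 in 1. Each run is the 150 bases before the gene's 5′ end, read 5′ to 3′ on the gene's strand from the RefSeq assembly GRCm38, which has the coordinates of mm10. Capitals mark matches on either strand to the GC box letters GGGCGG, the box named after its letters CCAAT, the ETS core CCGGAAG or the NRF1 motif GCGCATGCG, and adjoining matches merge into 1 run of capitals.
Smarcd2: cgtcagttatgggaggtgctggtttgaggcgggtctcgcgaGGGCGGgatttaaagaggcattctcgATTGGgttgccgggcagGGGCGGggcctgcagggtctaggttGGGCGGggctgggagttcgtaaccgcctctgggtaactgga
Arid1a: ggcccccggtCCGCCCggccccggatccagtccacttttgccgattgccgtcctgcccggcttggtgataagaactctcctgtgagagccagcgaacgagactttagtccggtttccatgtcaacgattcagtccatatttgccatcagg
Chd4: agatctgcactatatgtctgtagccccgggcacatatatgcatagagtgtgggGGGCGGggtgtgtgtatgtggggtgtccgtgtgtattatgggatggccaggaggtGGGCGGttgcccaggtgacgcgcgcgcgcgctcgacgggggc
Ino80: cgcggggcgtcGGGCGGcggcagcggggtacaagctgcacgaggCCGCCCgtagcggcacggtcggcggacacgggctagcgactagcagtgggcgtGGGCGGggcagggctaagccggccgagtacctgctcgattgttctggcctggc
Hdac1: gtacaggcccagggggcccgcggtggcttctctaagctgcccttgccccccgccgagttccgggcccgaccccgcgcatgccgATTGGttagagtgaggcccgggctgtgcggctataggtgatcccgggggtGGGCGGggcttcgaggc
Kdm7a: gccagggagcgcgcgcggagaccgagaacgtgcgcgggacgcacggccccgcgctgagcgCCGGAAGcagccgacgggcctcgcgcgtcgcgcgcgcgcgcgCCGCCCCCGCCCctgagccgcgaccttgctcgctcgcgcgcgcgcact
Mbd6: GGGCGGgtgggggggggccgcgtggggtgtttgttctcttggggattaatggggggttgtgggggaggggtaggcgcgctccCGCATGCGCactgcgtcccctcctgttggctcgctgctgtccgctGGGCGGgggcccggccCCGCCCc

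The windows are Smarcd2 at chr11:106272973-106273122 on the reverse strand, Arid1a at chr4:133756770-133756919 on the reverse strand, Chd4 at chr6:125095831-125095980 on the forward strand, Ino80 at chr2:119477688-119477837 on the reverse strand, Hdac1 at chr4:129542714-129542863 on the reverse strand, Kdm7a at chr6:39206790-39206939 on the reverse strand and Mbd6 at chr10:127289019-127289168 on the reverse strand. No annotated exon overlapped them. All 7 held at least 1 match, but they were picked for showing a motif or an exception, so this follows partly from the choice. The 2 without a peak in any library each held a GC box. Kdm6b, which also had no promoter peak in any library, held no match even in the wider window searched below. A match is a description of the letters and not a measured site.

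The lists held 41943 peaks for shGFP and 17860, 41401 and 31585 peaks for shLuc replicates 1, 2 and 3. They give positions only, with no height or score, and sequencing depth is not known from them. The list of shLuc replicate 1 was the shortest and had the fewest of the 66 genes. Of 8 ESC marker genes, all 4 libraries had a promoter peak for Zfp42 alone, and 5 (Pou5f1, Nanog, Sox2, Tdgf1 and Dppa4) had none in any. Of 11 markers of other cell types, 3 (Col1a1, Thy1 and Sox17) had a promoter peak in all 4 libraries and 4 in none. Thus the absence of a listed peak cannot be read as a closed promoter in these data.

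A promoter peak was defined as a peak within 1 kb of the start of any transcript of the gene. In shGFP, 53 of the 66 genes had one (80.3%, Wilson 95% confidence interval 69.2 to 88.1%), against 61.9% of all autosomal protein-coding genes. In shLuc replicate 1 it was 46 genes (69.7%, 57.8 to 79.4%) against 48.4%, in replicate 2 it was 54 (81.8%, 70.9 to 89.3%) against 61.5%, and in replicate 3 it was 49 (74.2%, 62.6 to 83.3%) against 56.3%. The share was above that of all genes in each library. The shLuc mean was 75.3% ± 6.12 (SD, n = 3), and shGFP was higher by 5.05 percentage points, less than this SD. Without shLuc replicate 1 the difference was 2.27 points (SD 5.36) and without replicate 2 it was 8.33 points, beyond the SD of 3.21. With the widest 17860 peaks of each list it reversed to -4.04 points, beyond the SD of 2.31. With 1 library against 3, the smallest p of an exact permutation test is 0.25, so no test was run. The intervals cover counting error over genes only.

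Across libraries, 43 genes (65.2%) had a promoter peak in all 4, against 44.0% of all genes. There were 4 in 3 libraries (background 12.6%), 6 in 2 (4.96%) and 6 in 1 (4.41%). A further 7 (10.6%) had none in any library, against 34.0% of all genes. The number with none was 2 with a window of 5 kb and 14 with 1 start per gene. Of the 16 genes with a peak in 1 to 3 libraries, shLuc replicate 2 held 11, shGFP 10, replicate 3 held 6 and replicate 1 held 3. Over all autosomal coding genes there were 4578 such genes. Of these, shLuc replicate 2 held 3646, shGFP 3735, replicate 3 held 2567 and replicate 1 held 918. The 66 genes also had more annotated starts (median 6 against 3), and with 1 start per gene the shares came closer to the background, 69.7% against 57.1% in shGFP.

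**Figure D1:**
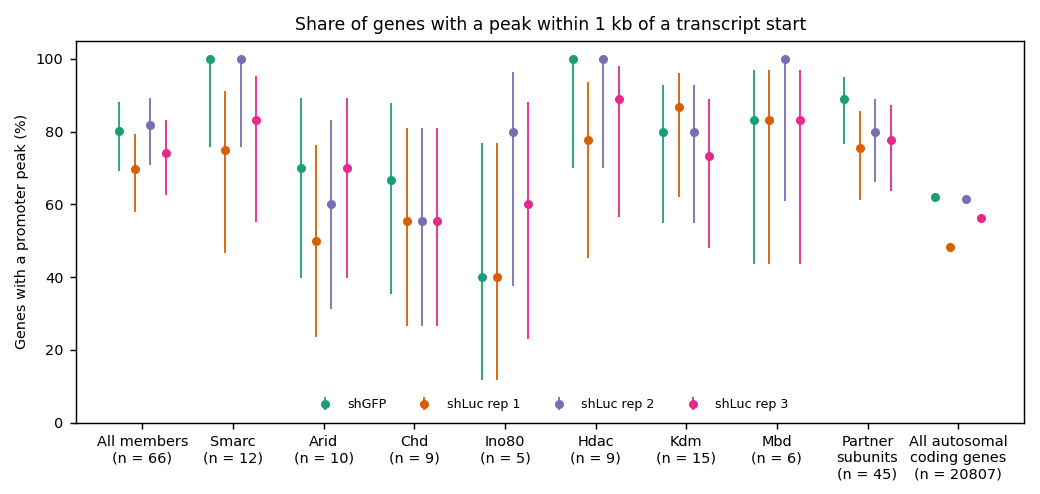
Share of genes (%) with a peak within 1 kb of a transcript start, by family, in each of the 4 libraries (points; bars are Wilson 95% intervals). The 66 genes together lie between 69.7 and 81.8%, above all autosomal coding genes at 48.4 to 61.9%, and the Arid, Chd and Ino80 families reach lower than Smarc, Hdac and Mbd, with wide intervals.

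In the Smarc family all 12 genes had a promoter peak in shGFP and in shLuc replicate 2, 9 in replicate 1 and 10 in replicate 3. Of these genes 66.7% had a peak in all 4 libraries, against 44.0% of all genes. They were Smarca4, the BRG1 ATPase of BAF, Smarca5, the ATPase of ISWI complexes, Smarcad1, Smarcal1, the scaffold subunits Smarcc1 and Smarcc2, Smarcd3 and Smarce1. The peak of Smarca4 was 1068 bp wide in shGFP and 883, 998 and 944 bp in shLuc replicates 1, 2 and 3. Smarca2 encodes BRM, the alternative ATPase of BAF. Its peak was 544 bp wide in shGFP, 799 bp in shLuc replicate 2 and not listed elsewhere, at an inner start 142.55 kb into the gene, and none lay at the 5′ end. Smarcb1, a core BAF subunit, and Smarcd2 lacked a peak in shLuc replicate 1 alone, while Smarcd1 lacked it in replicate 3 alone. For Smarcb1 the other libraries held 993, 1116 and 1062 bp, so the peak was of near-equal width wherever it was listed.

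In the Arid family 5 of 10 genes (50%, all genes 44.0%) had a promoter peak in all 4 libraries, namely Arid3b, Arid4a, Arid4b, Arid5a and Arid5b. Arid4a and Arid4b encode partners of the retinoblastoma protein and the Sin3 deacetylase complex. Arid4a had among the widest peaks, 1863 bp in shGFP and 1924, 1760 and 1773 bp in shLuc. None of the 3 Arid genes that define BAF and PBAF was found in more than 1 library. Arid1a, a BAF subunit, had no promoter peak in any library, its paralog Arid1b had one only in shGFP (987 bp), and Arid2, of PBAF, only in shLuc replicate 2 (1499 bp). Arid3a had one only in shLuc replicate 3 (589 bp) and Arid3c a 626 bp peak in shGFP and a 467 bp peak in replicate 3. Over the 12 BAF and PBAF genes, 5 had a promoter peak in all 4 libraries (41.7%, all genes 44.0%). There were 6 in 1 to 3 libraries and 1 in none (8.33%, all genes 34.0%).

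Of the 9 Chd genes, 5 had a promoter peak in all 4 libraries (55.6%, all genes 44.0%) and 3 in none (33.3%, all genes 34.0%). Chd1, Chd2, Chd6, Chd8 and Chd9 were the former. Chd1, a remodeler that accompanies transcription, had a wide peak of 1816 bp in shGFP and 1647, 1933 and 1625 bp in shLuc. The 3 with none were Chd3, Chd4 and Chd5, the alternative ATPases of NuRD. Chd7, whose human counterpart is mutated in CHARGE syndrome, had a peak only in shGFP, of 2129 bp. The other NuRD genes on the list, Hdac1, Hdac2, Mbd2 and Mbd3, had a promoter peak in all 4 libraries. Of the 7 NuRD genes, 57.1% thus had one in all 4 and 42.9% in none, against 44.0 and 34.0% of all genes. The NuRD counts depend on the window, since in every library Chd3 had a peak 4.721 to 4.800 kb from an inner start. That start lies 23.387 kb into the gene. The peak lay past the gene's end, 28.108 to 28.187 kb from its 5′ end.

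In the Ino80 family, Ino80, the ATPase, and Ino80c had a promoter peak in all 4 libraries (40% of the family, all genes 44.0%). The Ino80 peak was 1638 bp wide in shGFP and 1312, 1665 and 1088 bp in shLuc. Ino80d had a peak only in shLuc replicate 2 (959 bp), Ino80e only in replicates 2 (410 bp) and 3 (713 bp), and Ino80b in none.

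Among the deacetylases, 7 of 9 genes (77.8%, all genes 44.0%) had a promoter peak in all 4 libraries. These were Hdac1, Hdac2, Hdac4, Hdac5, Hdac7, Hdac10 and Hdac11. Hdac1 and Hdac2 are the class I enzymes of NuRD and Sin3 complexes. Hdac1 had one of the narrowest peaks, 701 bp in shGFP and 668, 358 and 411 bp in shLuc, while Hdac2 held 1234, 819, 1128 and 1117 bp in the same order. Only Smarcd3 was narrower than Hdac1 on average among the genes found in all 4 libraries (484, 365, 306 and 503 bp), and Hdac11 was next (665, 431, 530 and 591 bp). Hdac3, another class I enzyme, had a 473 bp peak in shGFP and a 1694 bp peak in shLuc replicate 2. Its nearest peak in shLuc replicate 3 lay 1.155 kb from a start, just outside the window, and that in shGFP lay 0.955 kb away, just inside it. Hdac9, a class IIa enzyme, was missing in shLuc replicate 1 alone. Its promoter peaks lay at inner starts 10.116 and 388.221 kb into the gene, and none lay at the 5′ end.

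The demethylases had 11 of 15 genes (73.3%, all genes 44.0%) with a promoter peak in all 4 libraries. These were Kdm1b, Kdm2a, Kdm2b, Kdm3a, Kdm4a, Kdm4b, Kdm4c, Kdm4d, Kdm5a, Kdm7a and Kdm8. Kdm7a had the widest mean promoter peak of the 43 genes found in all libraries, 2022 bp in shGFP and 2145, 2059 and 2060 bp in shLuc. The shortest list, shLuc replicate 1, thus held it at the greatest width of the 4. Kdm1a encodes LSD1, which removes methyl groups from mono- and dimethylated lysine. It had a peak in shLuc replicates 1 (856 bp) and 2 (760 bp) and none in shGFP or replicate 3. Kdm3b had a 1139 bp peak in shGFP and a 956 bp peak in shLuc replicate 1, and in replicates 2 and 3 the nearest peak lay 1.696 and 1.727 kb from a start. Kdm5a had peaks of 1206, 899, 1271 and 1242 bp, whereas its paralog Kdm5b and the H3 lysine demethylase Kdm6b had none in any library.

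Of the Mbd genes, Mbd1, Mbd2, Mbd3, Mbd4 and Mbd5 had a promoter peak in all 4 libraries (83.3% of the family, all genes 44.0%). Mbd3, the NuRD subunit that ESCs need to leave self-renewal, held 1286, 1182, 1344 and 1181 bp. Mbd6 had a peak only in shLuc replicate 2, of 2410 bp, the widest promoter peak among the 66 genes. In shGFP the nearest peak lay 1.419 kb from a start of Mbd6.

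Of the genes found in a single library, Arid3a had the narrowest peak and the other 5 were at least 959 bp wide. Their median width was 1243 bp over 6 genes, against 616 bp over the 918 autosomal genes found in a single library. For genes found in all 4 libraries the width was averaged over libraries, since the widest of 4 is larger by construction, and the medians were 1005 bp (43 genes) and 910.6 bp (9150 genes). Within libraries the median widest promoter peak of the 66 genes was 1134 bp in shGFP and 850, 1070.5 and 979 bp in shLuc, against 971, 708, 936 and 900 bp over all genes. These comparisons take the widest peak over all starts of a gene. The 66 genes have more starts, a median of 6 against 3, and this was not adjusted for.

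**Figure D2:**
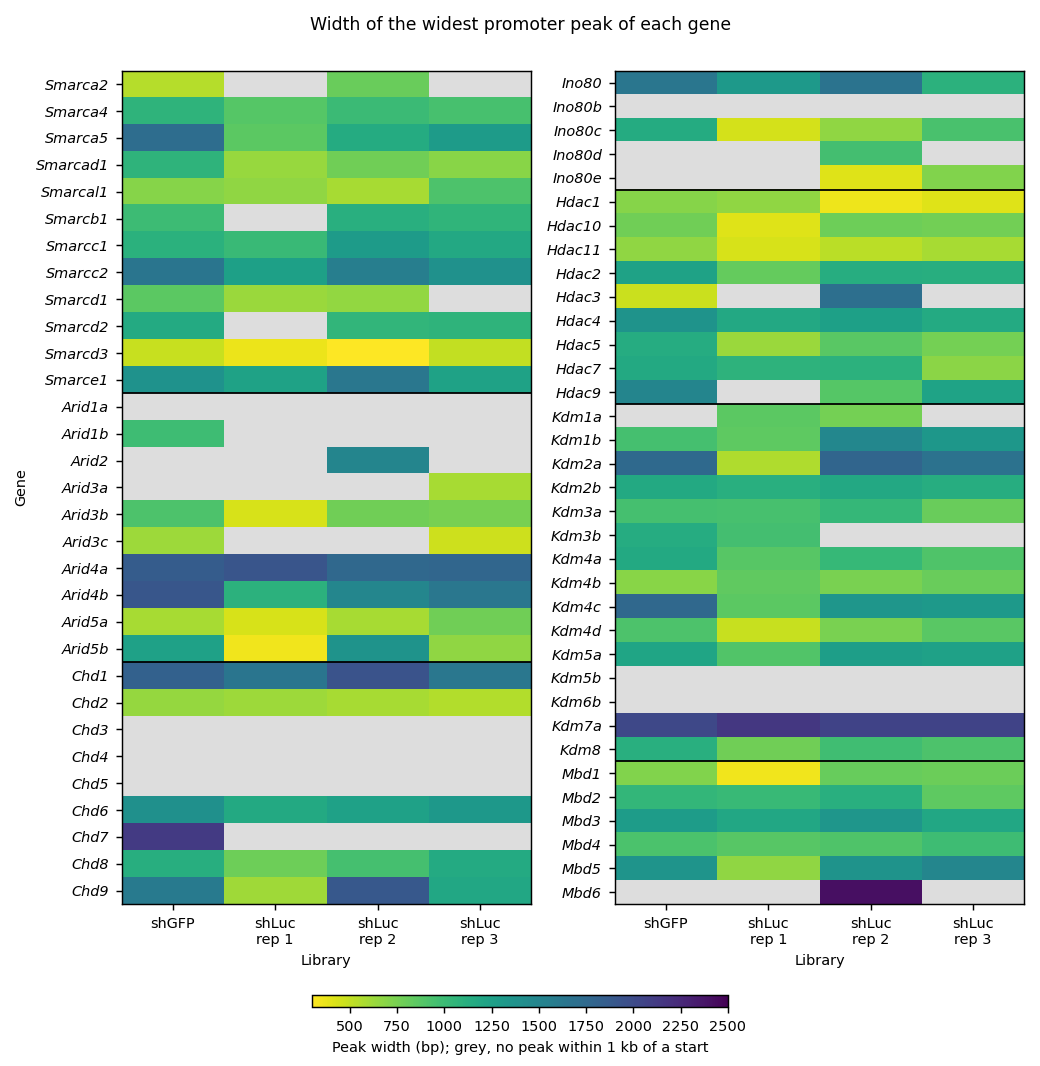
Width (bp, colour scale) of the widest peak within 1 kb of a start for each of the 66 genes (rows) in each library (columns), grouped by family between black lines; grey marks no such peak. Chd3, Chd4 and Chd5 are grey throughout, Kdm7a is dark in every library, and Mbd6 and Chd7 are dark in 1 library and grey in the others.

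The 5′ ends of the 7 genes without a promoter peak lay in stretches that held no listed peak in any library. A stretch of some length follows from having no peak within 1 kb, and parts of these genes lay outside it. The stretch around the 5′ end of Arid1a was 82.484 kb long in common to the 4 libraries, from chr4:133730565 to 133813048, and held no start of another coding gene. Around Chd4 it was 28.541 kb, around Chd5 27.022 kb, around Kdm5b 12.905 kb and around Kdm6b 8.655 kb, again with no other coding start. Around Chd3 it was 67.331 kb and held the starts of Cyb5d1, Naa38 and Tmem88, and around Ino80b it was 14.777 kb and held that of Rtkn. Chd3 and Kdm6b are neighbours on chromosome 11, and in shGFP and shLuc replicates 1 and 3 both 5′ ends lay in a single stretch without peaks, of 102.146, 264.341 and 77.564 kb.

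Peaks next to these genes recurred at the same places. For Arid1a the nearest peak to the 5′ end lay 26.304 kb away in shGFP and 26.205, 26.644 and 26.380 kb away in shLuc, in an intron. For Chd4 the nearest lay 13.707 kb away in shGFP and 13.642, 13.791 and 13.666 kb away in shLuc, before the gene. For Kdm5b it lay 2.886 kb away in shGFP, 2.951 and 3.040 kb away in shLuc replicates 2 and 3, and 10.354 kb away in replicate 1. Each library thus listed peaks in or beside these 3 genes and none at their starts. Kdm6b was the least regular, at 29.770 kb in shGFP and 72.426, 3.855 and 5.109 kb in shLuc.

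**Figure D3:**
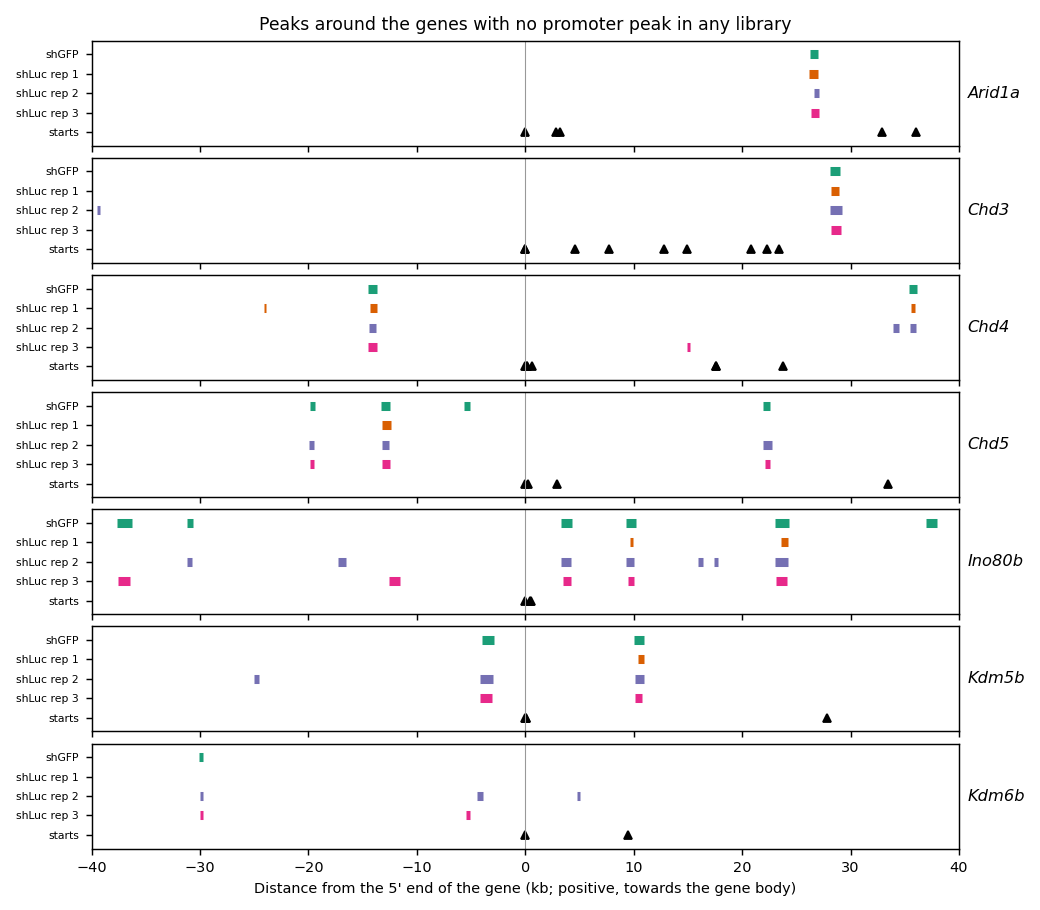
Listed peaks (bars, 1 row per library) within 40 kb of the 5′ end of the 7 genes with no promoter peak, with annotated transcript starts as triangles; the x axis is distance in kb, positive towards the gene body. The 4 libraries share peaks at 26 to 27 kb in Arid1a and before Chd4 at about 14 kb, and no bar reaches a start.

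Many of these genes have several annotated starts. Starts within 1 kb of each other were joined, which gave 277 start clusters in the 66 genes, with more than 1 cluster in 62 genes. A peak was found in all 4 libraries at 48 clusters and in none at 192. Such clusters were not counted over all genes, so the counts have no background and cannot be called particular to these genes. The first cluster, at the 5′ end, had a peak in all 4 libraries in 35 genes, and of 211 later clusters 13 did. In 5 genes the first cluster had no peak in any library while a later one had it in all 4. These were Arid5b (142.114 kb into the gene), Hdac4 (15.358 kb), Hdac7 (12.735 kb), Kdm2b (89.468 kb) and Kdm4c (9.439 kb). Kdm2b encodes a demethylase that brings a Polycomb complex to unmethylated CpG islands, and its inner peak was 1163 bp in shGFP and 1115, 1173 and 1127 bp in shLuc. In Smarcc1, Chd2, Chd8 and Kdm2b at least 2 clusters had a peak in all libraries. In Chd2 these clusters lay 4.209 and 80.097 kb into the gene, and the first cluster had a peak only in shGFP. In Kdm2b the clusters 107.59 and 108.738 kb into the gene shared a single peak, which counts at each. Smarcc1 had 1099, 1013, 1295 and 1172 bp at its 5′ end and 802, 667, 917 and 809 bp at a start 14.272 kb further in.

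Some promoter peaks also lay within 1 kb of a start of another coding gene. This held for 10 of the 59 genes with a promoter peak in any library (16.9%), against 20.6% over all such genes. The pairs in all 4 libraries were Smarcc1 with Dhx30, Arid4b with Ggps1, Kdm1b with Tpmt, Kdm4d with Cwc15, Kdm5a with Ccdc77, Mbd4 with Ift122 and Mbd5 with Orc4. Hdac3 shared its peak with Rell2 in 2 libraries, and Ino80e with Hirip3 and Mbd6 with Ddit3 in 1 each. A peak at such a pair cannot be assigned to either gene.

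Base composition was read from 250 bases before to 50 bases after each 5′ end. Median GC content was 60.5% in the 66 genes and 55.3% in all genes, and the median ratio of observed to expected CpG was 0.773 and 0.540. Both values passed 55% and 0.6, cut-offs taken after the data were seen, in 44 of 66 genes (66.7%) and in 37.3% of all genes. Among the genes with a CpG-rich 5′ end the order was the opposite of that over all promoters. In shGFP 81.8% of the 44 genes had a promoter peak against 91.3% of all CpG-rich genes, and in shLuc it was 68.2, 81.8 and 72.7% against 78.1, 90.7 and 85.1%. In all 4 libraries 27 of the 44 (61.4%) had one against 71.8%. No interval was computed for these shares, which rest on 44 genes, and the difference was not tested. The call counts a peak at any start, while composition was read at the 5′ end. With the 5′ end as the only start, an alternative chosen after the data were seen, 79.5% of the 44 had a peak in shGFP against 89.7%, and 65.9, 77.3 and 72.7% in shLuc against 76.4, 88.9 and 83.1%. Of the 16 genes found in 1 to 3 libraries 14 were CpG-rich (87.5%), against 39.7% of all genes found in 1 to 3. Of the 7 genes found in none, Arid1a, Chd4 and Chd5 were CpG-rich (GC content 61.3, 57.0 and 70.7%), whereas 5.14% of all genes without a promoter peak were. Both contrasts start from a higher share of CpG-rich genes among the 66, 66.7% against 37.3%. Within the CpG-rich genes, 3 of the 44 (6.82%) had a promoter peak in no library, against 4.69% of all CpG-rich genes.

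**Figure D4:**
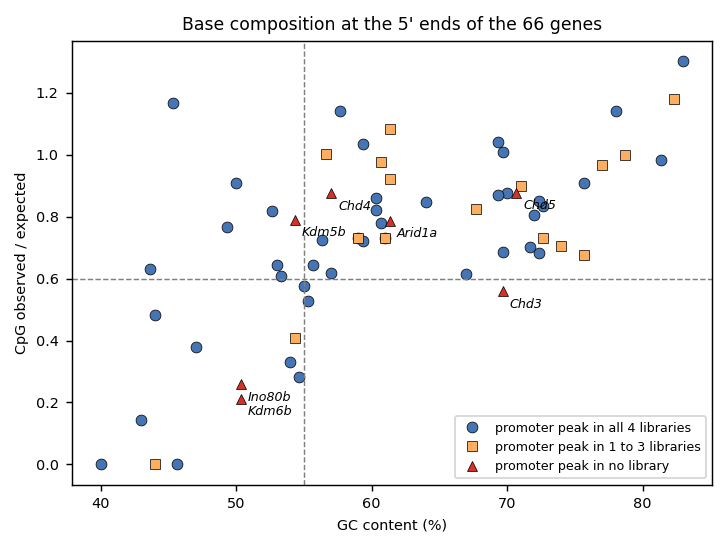
GC content (%, x axis) and observed over expected CpG (y axis) at the 5′ end of each of the 66 genes, with symbols for a promoter peak in all 4, in 1 to 3, or in no library; dashed lines mark 55% and 0.6. The genes with no promoter peak lie on both sides of the lines, and most of those found in 1 to 3 libraries lie in the CpG-rich corner.

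Motifs were searched on both strands in the same 300 bases. The GC box was found in 43 of the 66 genes (65.2%) and in 43.7% of all genes, and CCAAT in 24 (36.4%) and 38.6%. CCGGAAG was found in 13 genes (19.7%, all genes 11.0%), of which 10 had a peak within 1 kb of the 5′ end in all 4 libraries and 2 in none, against 70.1% in all 4 over the 2294 genes with these letters. TATAAA was found in 4 (6.06%, all genes 12.7%), CACGTG in 4 (6.06%, all genes 7.82%), GCGCATGCG in 2 (3.03%, against 458 of the 20807 genes), TGACGTCA in 1 (1.52%, all genes 2.43%) and AAGATGGCG (YY1) in 0 (all genes 1.70%). Among the sequences shown above, Kdm7a carried CCGGAAG and Mbd6 the NRF1 motif.

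Gene-body peaks were peaks that overlapped the gene and were not within 1 kb of any of its starts. There were 64 in shGFP and 15, 67 and 38 in shLuc replicates 1, 2 and 3. Each gene held 0.970 of them on average in shGFP, against a shLuc mean of 0.606 ± 0.395 (SD, n = 3), a difference of 0.364 that was smaller than the SD. It was 0.174 without shLuc replicate 1 (SD 0.311) and 0.568 without replicate 2, beyond the SD of 0.246, and with lists of equal length it reversed to -0.0303. At least 1 in any library was found in 37 genes, against 34.5% of all genes, and at least 1 in every library in 10 (15.2%), against 9.51%. The 66 genes are long, with a median of 50.7 kb against 17.6 kb. Per 100 kb of gene their density in shGFP was 1.12, against 1.15 over all genes. The shLuc mean was 0.699 ± 0.455 (SD, n = 3), against 0.747 ± 0.395 over all genes. These SDs are spreads between libraries and do not measure the gap within a library. The density was 0.262 against 0.336 in shLuc replicate 1 and 0.664 against 0.779 in replicate 3. In shLuc replicate 2 alone the density of the 66 genes was the higher, 1.17 against 1.12.

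The gene-body peaks were concentrated in a few long genes. Arid1b, 353.3 kb long, had 8 in shGFP and 2, 9 and 4 in shLuc. Arid5b followed with 6, 1, 5 and 2, Chd9 with 5, 0, 5 and 3, Hdac4 with 3, 0, 3 and 3, Hdac9 with 3, 1, 2 and 2, and Kdm4b with 3, 1, 3 and 1. Length alone did not order them, because Hdac9, at 869.5 kb the longest, had 0.230 per 100 kb summed over libraries and divided by 4, and Kdm4b, at 76.8 kb, had 2.60. Per 100 kb in shGFP, the Arid family had the highest density (1.81) and Mbd the lowest (0.210), with Smarc at 0.440. In shLuc replicate 1, the shortest list, the Chd family had 1 gene-body peak and the Mbd family 0.

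There were no gene-body peaks in any library in 29 genes (43.9%, all genes 65.5%). These were Smarca2, Smarca5, Smarcal1, Smarcb1, Smarcc2, Smarcd1, Smarcd2, Smarcd3, Smarce1, Arid3a, Arid3c, Arid5a, Chd3, Ino80e, Hdac1, Hdac5, Hdac11, Kdm1a, Kdm2a, Kdm3a, Kdm4d, Kdm5a, Kdm7a, Kdm8, Mbd1, Mbd2, Mbd3, Mbd4 and Mbd6. Their median length was 26.6 kb, against 77.8 kb in the 37 genes with any. Smarca2, at 173.3 kb, also had none, but peaks within 1 kb of any of its 42 annotated starts are excluded by definition. Its peak 142.55 kb into the gene was counted as a promoter peak for that reason.

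Merged over libraries, the gene-body peaks made 93 regions, of which 78 lay in introns and 15 touched an exon. There were 39 in 1 library, 27 in 2, 17 in 3 and 10 in all 4, and regions merged from more libraries are wider by construction. The 10 in all 4 libraries lay in Smarcad1, Smarcc1, Arid1a, Arid1b (2 regions), Arid4a, Arid5b, Chd6, Hdac9 and Kdm5b. Thus Arid1a and Kdm5b, with no promoter peak, each held an intron region found in every library, at chr4:133729683-133730564 and chr1:134570191-134571086. Of the 10, that in Hdac9 was 97.1% repeat sequence and that in Smarcad1 76.8%, and repeats made up most of the bases in 11 of the 93.

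**Figure D5:**
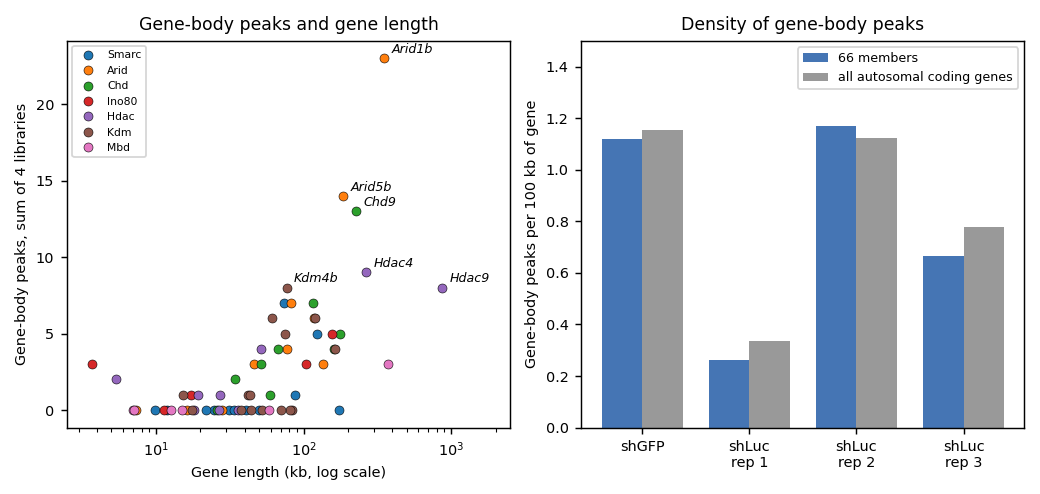
Left, gene-body peaks summed over the 4 libraries (y axis) against gene length (kb, log scale) for the 66 genes, coloured by family. Right, gene-body peaks per 100 kb of gene in each library for the 66 genes (blue) and all autosomal coding genes (grey), which lie close together, at 1.12 and 1.15 in shGFP.

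Subunits that work with these proteins were set beside them. The list held 45 autosomal genes of the BAF, PBAF, NuRD, INO80 and ISWI complexes and of deacetylase corepressors. A promoter peak was found in all 4 libraries in 31 (68.9%, all autosomal coding genes 44.0%). It was found in 1 to 3 libraries in 11 and in none in 3 (6.67%, all genes 34.0%). The 3 were Mta1, a NuRD subunit, Sin3a, the scaffold of the Sin3 complex, and Rcor2, a partner of LSD1. Among the 11 were Dpf1, Bcl7a, Mta3, Cdk2ap1, Ruvbl2, Baz1a, Baz2a, Cecr2, Sap30 and Suds3. In NuRD, 4 of 7 partner genes had a promoter peak in each shLuc library and 6 of 7 in shGFP. In BAF and PBAF, each library on its own had a promoter peak for 12 of 13 partner genes, but not always the same ones. Bcl7a lacked a peak in shLuc replicate 3 alone, and Dpf1 had one only there. Of the 12 BAF and PBAF genes among the 66 the counts were 10 in shGFP and 6, 10 and 7 in shLuc.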

How the data were processed

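Per the labels, ATAC-seq libraries of E14 cells were made with a Nextera transposase. The submitters' processing notes name bcl2fastq, Bowtie2, MACS2 and mm10. According to the study's methods, which cover ChIP-seq as well, multimapped reads were placed at 1 best position at random and only concordant pairs were kept; random placement bears on peaks in repeats. The peak-calling threshold and any transposase shift are not given in the sources used here. The deposited lists give the chromosome, start and end of each peak, with no count or score, per library and not pooled. Depth is not known from the lists, and read totals tabulated by the study were not used here, so a longer list may reflect more reads.

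Peaks were compared with GENCODE release 21 in Python 3.11.15 (numpy 2.4.6, pandas 2.3.3, pysam 0.24.0), with an overlap of at least 1 bp. A gene was called when a peak lay within 1 kb of any start. Each library has its own share, shLuc also a mean and SD (n = 3), with Wilson 95% intervals. On simulated data, 2000 of 2000 promoter calls and gene-body counts and 1481 of 1481 distances were recovered. The alternatives were windows of 500 bp, 5 kb and 0 bp, coding starts only, 1 start per gene, the widest peaks at equal list length, the widest 50%, all chromosomes, other gene-body definitions and leaving out each shLuc library.

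Every gene was named by its status (all 4 libraries, 1 to 3, none), together with the 6 genes with most gene-body peaks, those with none, and the 3 widest and 3 narrowest promoter peaks. Genes, lists and this rule were chosen with earlier results of these data known. The name of 1 partner gene is not reported here.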

Additional observations from a re-analysis of the deposited data

How the results depend on the processing

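The alternatives gave 82 values for 8 results, of which 2 reversed and 13 others moved beyond the shLuc SD, the Wilson interval of the shGFP share or, for counts, 1.5 times. The other 67 kept their direction, with sizes that could still change, such as a gene-body difference of 0.0707 with the widest 50% of each list. With the widest peaks at equal list length (17860 each), the promoter share was 63.6% in shGFP and 67.7% in shLuc, and the difference reversed to -4.04 percentage points, beyond the shLuc SD of 2.31. Gene-body peaks per gene were then 0.167 and 0.197 and their difference reversed to -0.0303; fewer peaks enter by construction. The shares of the 66 genes stayed above those of all genes there, 63.6 to 69.7% against 47.2 to 48.4%. With the widest 50% of each list, the shLuc share was 63.6% and gene-body peaks 0.212 and 0.141. Within 5 kb of a start, the shLuc share was 81.8% and 2 genes had no peak. With 1 start per gene, the shLuc share was 63.1% and 14 genes had none. Counting all peaks in the gene gave 2.02 and 1.55 per gene. The difference in promoter share exceeded its SD with coding starts only (5.56 against 5.32) and with 1 start per gene (6.57 against 5.32); the cause was not tested.

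Leaving out each shLuc library in turn gave differences of 2.27 to 8.33 percentage points and of 0.174 to 0.568 gene-body peaks per gene. Without replicate 2 both exceeded their SD (8.33 against 3.21, and 0.568 against 0.246), and 10 genes had a promoter peak in none of the remaining libraries. The number with a peak in every library was 43 to 46. No paired analysis was possible because shGFP is a single library without a replicate number and no test was run. Peak lists without scores or depth do not allow a weak peak to be told from a missing one.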
